A study of Homo sapiens with 6 samples.

Results

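The genes described here are 59 genes of mitosis and the spindle checkpoint, chosen by name from rows of the deposited count table: cyclins and kinases of mitotic entry, kinetochore and checkpoint proteins, proteins of the spindle, the chromosomes and cytokinesis, and the transcription factors FOXM1 and MYBL2. Of the 39554 gene IDs in that table, all 59 were found and all 59 passed the filter on low counts that left 17693 genes for testing. The list was meant to leave out kinesins, but CENPE is itself a motor protein of the kinesin family and was kept under its kinetochore name. Entries for SPC25 and ARHGAP11A carried a suffix for a copy on an alternate scaffold and were matched by gene ID, and how reads were shared between such copies is not given in the sources used here. ARHGAP11A also has a near-identical partial copy, ARHGAP11B, so its counts are uncertain.

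The cells were of SW620, a long-established line from a human colorectal cancer. In 3 libraries (siNC) the cells had been transfected with a control small interfering RNA, and in 3 libraries (siSOWAHA) with one against SOWAHA, a gene of the ankyrin repeat family named after sosondowah. RNA was taken 72 h after transfection in both groups, and neither group is described as carrying any other allele or agent. A knockdown in a single line at a single time limits what the groups can stand for, and the labels do not say whether replicate libraries stand for separate cultures or whether 1 siRNA was used throughout. The p-values below thus rest on the spread between the 6 libraries, and that spread may be technical.

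Libraries held 49937395 to 59474396 counts, and the 59 genes took up 0.772% to 0.779% of the counts in the siNC libraries and 0.703% to 0.724% in the siSOWAHA libraries. The knocked-down transcript checked the labels: SOWAHA (Entrez 134548, GRCh38 chr5:132813302-132816786, plus strand) stood at 32.3, 39.4 and 33.8 normalised counts (CPM) in siNC, where counts are scaled by library, and at 7.52, 6.85 and 8.96 in the siSOWAHA libraries (log2 fold change -2.18, SE 0.105, edgeR adjusted p = 3.68e-09). The epithelial markers EPCAM (mean 398 CPM in both groups) and KRT8 (5231 and 4805 CPM) were abundant, while the intestinal factor CDX1 was at 0 in all libraries. Of 9 epithelial markers tested, 5 were called lower and none higher, against 7.77% lower and 9.12% higher over all genes tested. Those lower were CDH17 (log2 fold change -0.59), CDX2 (-0.44), KRT19 (-0.30), CDH1 (-0.13) and KRT8 (-0.12). The summed level of the list, most of it KRT8 and KRT18, was 9522 to 9827 CPM in siNC and 8882 to 8992 CPM in siSOWAHA. The leukocyte genes PTPRC and CD3E and the endothelial gene CDH5 were at 0; the leukocyte list summed to 8.46 to 8.97 CPM in siNC and 6.39 to 8.52 CPM in siSOWAHA, most of it LYZ (mean 7.39 and 6.69 CPM), and the endothelial list to 1.70 to 2.73 and 1.61 to 2.88 CPM, most of it VWF and PECAM1. The fibroblast markers summed to 69.7 to 76.0 CPM in siNC and 79.5 to 92.0 CPM in siSOWAHA, most of it LUM (61.1 and 76.4 CPM). LUM was called higher (log2 fold change 0.32, edgeR adjusted p = 0.00051). COL1A1 (9.18 and 6.96 CPM, adjusted p = 0.0594) and PDGFRB (2.13 and 1.55 CPM, adjusted p = 0.205) had lower means in siSOWAHA and did not pass the edgeR test. The part of these marker shifts in the results below was not tested.

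Mitosis is driven by CDK1 bound to cyclin A or cyclin B, which CDC25 phosphatases switch on and which Polo and Aurora kinases assist. Kinetochores built on the centromere capture microtubules, and until all are attached the spindle checkpoint holds back the anaphase-promoting complex (APC/C), whose activator CDC20 then directs the destruction of securin and cyclin B so that separase can part the sister chromatids. Most of these genes are transcribed late in the cell cycle. In G0 and G1 the DREAM complex, which contains MuvB, keeps them low through a promoter element called the cell cycle genes homology region (CHR), and in G2 and mitosis MuvB with MYBL2 and FOXM1 raises them, often together with NF-Y bound to CCAAT boxes. High levels of this gene group mark proliferating cells in the colon as elsewhere.

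The promoters are shown here because the same short elements recur in them. RefSeq promoters (GRCh38.p14, 250 bases before to 50 after each annotated start) were held for 47 of the 59 genes; AURKA, BIRC5, BUB3, CDCA2, FOXM1, KNL1, PBK, PIMREG, RACGAP1, TPX2, TTK and UBE2C had no entry. The CHR element was searched as TTTGAA or TTCGAA and the CCAAT box as CCAAT, each on both strands, so that TTCAAA and ATTGG count as matches; a CHR and a CCAAT match can share an end letter. The first 6 windows belong to genes that were lower in the siSOWAHA libraries, and the last 4 to genes that did not pass the test. Each runs from 110 bases before to 30 bases after the annotated start, 5′ to 3′ on the gene's strand, with CHR and CCAAT matches in capitals.
CCNB2 (chr15:59105036-59105175, plus strand): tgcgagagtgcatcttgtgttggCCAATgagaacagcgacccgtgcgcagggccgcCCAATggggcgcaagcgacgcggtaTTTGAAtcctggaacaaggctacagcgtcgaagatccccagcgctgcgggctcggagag
GTSE1 (chr22:46296760-46296899, plus strand): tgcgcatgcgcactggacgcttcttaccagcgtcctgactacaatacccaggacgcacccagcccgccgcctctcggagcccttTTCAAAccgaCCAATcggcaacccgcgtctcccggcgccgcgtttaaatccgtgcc
DLGAP5 (chr14:55191556-55191695, minus strand): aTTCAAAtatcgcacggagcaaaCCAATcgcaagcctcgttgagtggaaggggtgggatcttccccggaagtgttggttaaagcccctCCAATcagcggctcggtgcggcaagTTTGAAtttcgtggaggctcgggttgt
ANLN (chr7:36389752-36389891, plus strand): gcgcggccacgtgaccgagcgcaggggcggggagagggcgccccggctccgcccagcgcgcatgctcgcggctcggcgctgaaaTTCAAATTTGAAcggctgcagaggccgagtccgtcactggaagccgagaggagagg
NUF2 (chr1:163321844-163321983, plus strand): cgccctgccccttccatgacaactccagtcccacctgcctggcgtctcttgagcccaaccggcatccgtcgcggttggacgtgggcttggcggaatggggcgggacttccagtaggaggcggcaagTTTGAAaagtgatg
CDCA3 (chr12:6851257-6851396, minus strand): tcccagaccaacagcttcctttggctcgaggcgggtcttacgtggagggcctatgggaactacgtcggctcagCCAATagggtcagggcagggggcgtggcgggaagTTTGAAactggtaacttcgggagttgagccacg
CCNB1 (chr5:69167040-69167179, plus strand): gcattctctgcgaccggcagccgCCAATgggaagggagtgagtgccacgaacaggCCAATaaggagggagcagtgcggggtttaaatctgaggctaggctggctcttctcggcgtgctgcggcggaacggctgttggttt
PLK1 (chr16:23678779-23678918, plus strand): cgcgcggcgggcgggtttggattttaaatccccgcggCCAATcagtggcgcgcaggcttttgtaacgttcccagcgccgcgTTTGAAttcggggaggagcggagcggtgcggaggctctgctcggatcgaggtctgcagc
INCENP (chr11:62123901-62124040, plus strand): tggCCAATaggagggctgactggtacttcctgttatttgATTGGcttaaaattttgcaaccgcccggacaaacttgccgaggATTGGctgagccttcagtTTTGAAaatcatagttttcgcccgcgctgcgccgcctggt
PRC1 (chr15:90994506-90994645, minus strand): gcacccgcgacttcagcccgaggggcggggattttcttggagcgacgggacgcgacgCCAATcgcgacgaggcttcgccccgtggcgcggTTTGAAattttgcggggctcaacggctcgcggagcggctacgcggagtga

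In these windows CCNB2 had a CHR element 29 bases before the start with CCAAT boxes upstream of it, and PLK1, which did not pass the test, had the same element at the same distance. ANLN had TTCAAA and TTTGAA back to back and no CCAAT box, and NUF2 had its CHR element at position 17 after the start. CCNB1 was the only one of the 10 with no CHR match, although it had a pair of CCAAT boxes, and INCENP had 3 CCAAT boxes and a CHR element. A match is a run of letters, not a measured binding site, and no match says only that those letters are not in this window.

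Over the genes with an entry, 33 of 47 (70.2%) held a CHR match in at least 1 of their promoters, against 19.5% of the 27305 genes in the RefSeq table and 15.8% of the 13233 tested genes with an entry. CCAAT boxes were held by 37 of 47 (78.7%), against 39.7% of all genes in the table. In 27 of the 47 genes a CHR match lay within 50 bases of a start. Among genes that were called lower in the comparison below, 19 of 21 held a CHR match and 17 held both motifs; among those that did not pass the test, 13 of 25 held a CHR match. Of the other tested genes, CHR matches were held by 15.9% of those called lower, 13.9% of those called higher and 15.8% of the rest. These shares are descriptions with no test. Many of the genes were known as late cell cycle genes when the list was made.

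**Figure D1:**
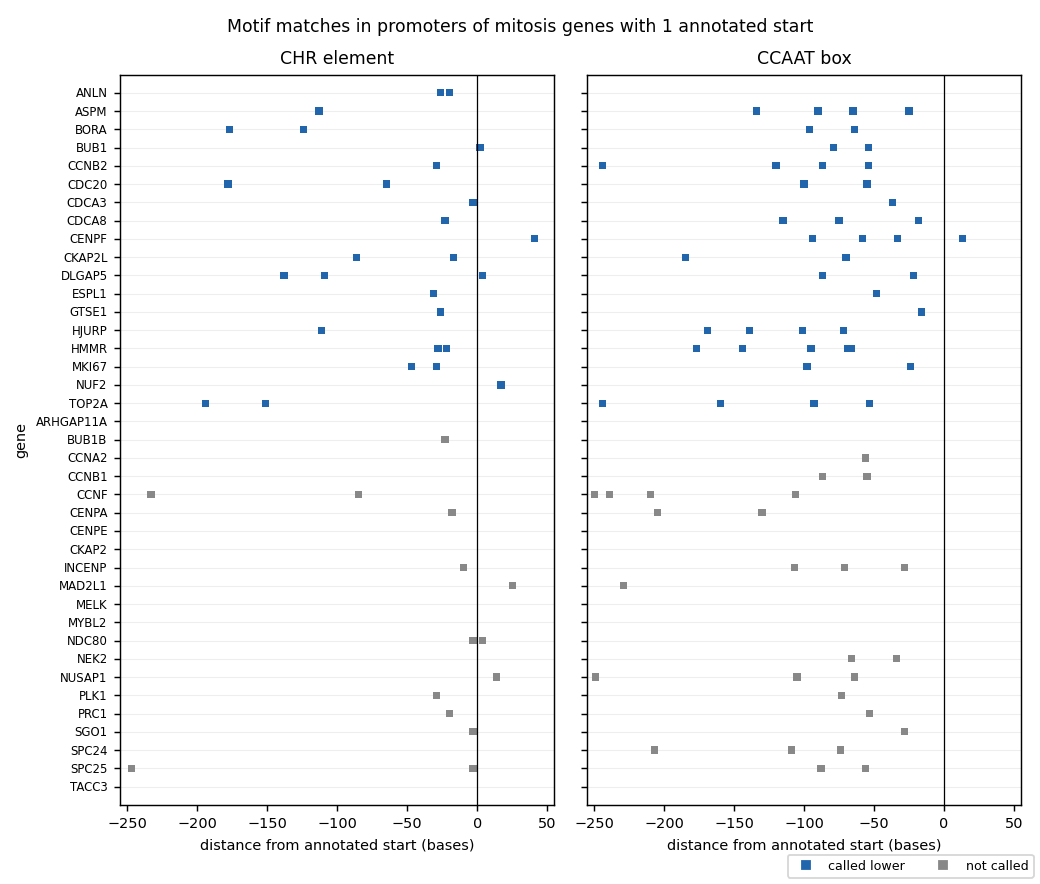
CHR (left) and CCAAT (right) matches in the promoters of the 39 mitosis genes with a single annotated start, against distance from that start in bases; each square is 1 match, blue for genes called lower in siSOWAHA and grey for genes not called. All 18 genes called lower and 11 of the 21 not called have at least 1 CHR match, most of them near the start. PTTG1 and SGO2, called lower but with 2 starts each and so not drawn, have no CHR match.

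The comparison asked whether transcripts of the mitotic machinery differed after SOWAHA knockdown. Of the 59 genes, 25 were lower in the siSOWAHA libraries, CDC25B alone was higher, and 33 did not pass the test (edgeR quasi-likelihood test, Benjamini-Hochberg adjusted over all 17693 genes, called at an adjusted p under 0.05). The background for the lower calls was 7.77% of all genes tested and for the higher calls 9.12%; the share of the mitosis genes called lower was 42.4%. Among the 9239 genes at least as abundant as the lowest of the 59, 11.5% were called lower and 15.5% higher. The decreases were small: the median log2 fold change over the 59 genes was -0.13, or 91.4% of the siNC level, against -0.01 over all genes tested, and the range was -0.37 to 0.12. In bulk RNA, fewer cells in G2 and mitosis and less RNA per such cell cannot be told apart.

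The 25 genes called lower had a median log2 fold change of -0.23 (85.5% of siNC), with PIMREG the lowest and CENPF the closest to 0. Only 9 of the 59 were lower by at least 1.2-fold (CDC25C, PTTG1, SGO2, CDCA3, NUF2, DLGAP5, CKAP2L, GTSE1 and PIMREG), and none of the 59 passed an edgeR test against a fold of 1.2. Of the 33 genes not called, 28 had a fold change below 0 and 5 above 0. Their 95% intervals together spanned -0.33 to 0.22 on the log2 scale. Those of CDK1, PLK1, AURKB and INCENP lay within 0.1 of 0 on both sides.

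**Figure D2:**
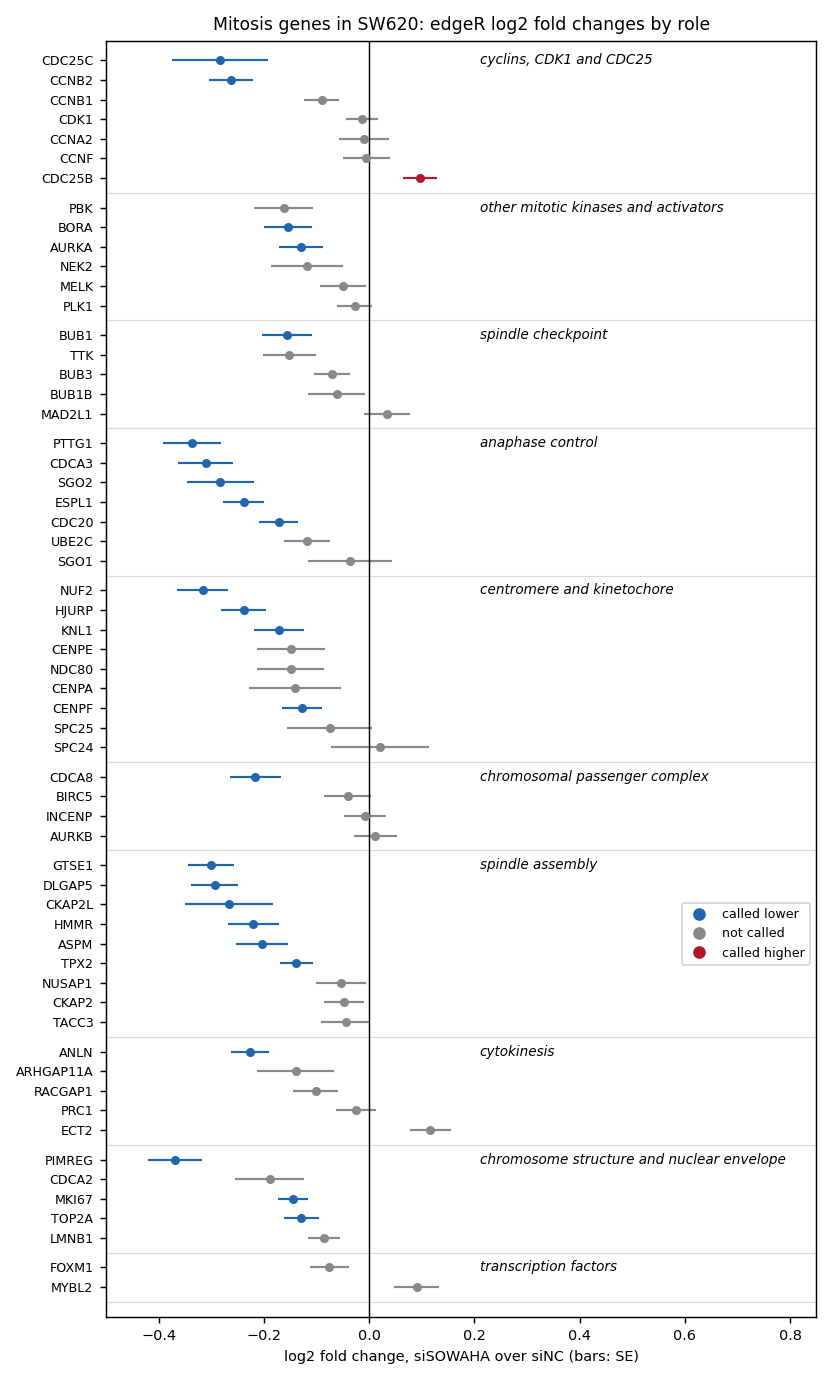
Log2 fold change of each of the 59 mitosis genes, siSOWAHA over siNC, from the edgeR fit, grouped by role; points are estimates, bars their SE, blue called lower, red called higher and grey not called. The estimates run from -0.37 (PIMREG) to 0.12 (ECT2), and 53 of the 59 lie left of 0.

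Library by library, the shift was present in all 3 siSOWAHA replicates. The median log2 ratio of the 59 genes to their siNC mean was 0.01, 0.01 and -0.02 for the siNC libraries and -0.15, -0.10 and -0.10 for the siSOWAHA libraries, by replicate number. Over all genes tested the same medians were between -0.01 and 0 in all 6 libraries. The summed level of the 59 genes was 7752, 7709 and 7634 CPM in siNC and 7022, 7215 and 7283 CPM in siSOWAHA, so the groups did not overlap (mean 7699 ± 59.4 and 7173 ± 135 CPM, SD, n = 3 each). Every siSOWAHA library was below every siNC library for 32 of the 59 genes, with a background of 16.3% of all genes tested. CDC25B and MYBL2 showed the opposite separation, as did 2946 of all 17693 genes tested.

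Replicate 1 of siSOWAHA was the lowest of the 3 siSOWAHA libraries for 32 of the 59 genes, replicate 2 for 19 and replicate 3 for 8. For the 25 genes called lower these counts were 10, 11 and 4. Without siSOWAHA replicate 1 the median log2 fold change was -0.10 and 20 genes were called lower; without siNC replicate 1, 16 were called lower and the median was -0.11. In the genes called lower the median log2 ratios of the siSOWAHA libraries were -0.23, -0.21 and -0.23, and in the genes not called they were -0.10, -0.04 and -0.03. The calls were made on these same libraries and favour genes with little spread within a group. The closeness of the medians in the called genes is therefore no separate result.

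**Figure D3:**
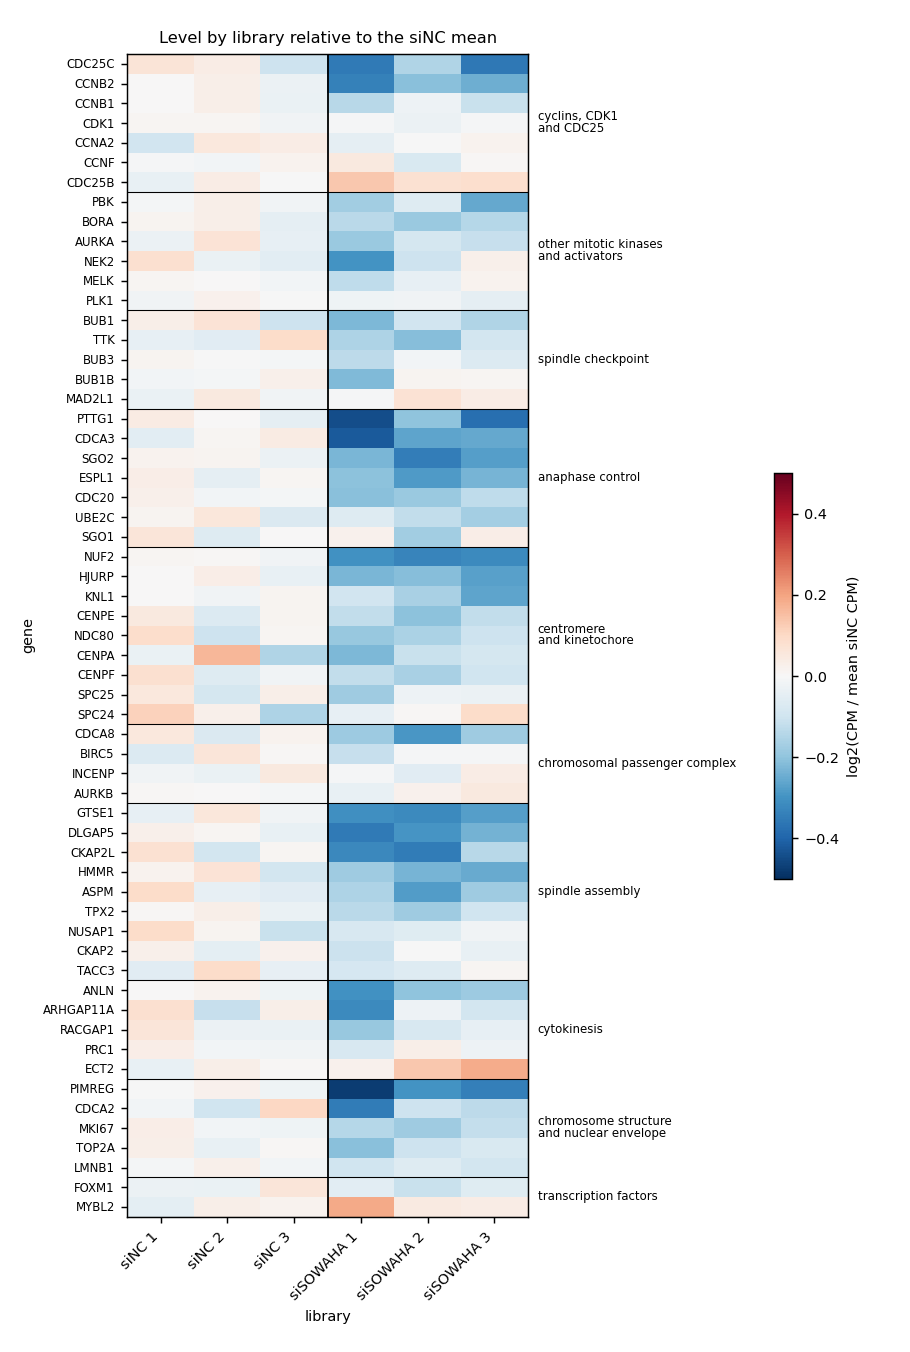
Level of each of the 59 mitosis genes in each library as log2 of CPM over the mean siNC CPM, with rows grouped by role and the vertical line dividing the 3 siNC from the 3 siSOWAHA libraries; blue is below and red above the siNC mean. Blue runs through most of the anaphase control and spindle assembly rows in all 3 siSOWAHA columns, while CDC25B, ECT2 and MYBL2 are red there.

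In the values that follow, siNC replicates 1, 2 and 3 are given first and siSOWAHA replicates 1, 2 and 3 second, in CPM, and adjusted p-values are those of the edgeR fit. Means carry the SD over 3 libraries a group.

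Among the cyclins, CDK1 and the CDC25 phosphatases, 2 of 7 genes were lower, 1 was higher and 4 did not pass the test, with a median log2 fold change of -0.01. CCNB2, cyclin B2, was at 116, 118 and 114 CPM and then at 91.9, 101 and 98.0 CPM. All siSOWAHA libraries lay below all siNC libraries (mean 116 ± 2.24 and 96.9 ± 4.49 CPM, log2 fold change -0.26, SE 0.0427, edgeR adjusted p = 0.000533). The main mitotic cyclin CCNB1 was more abundant, at 339, 346 and 331 and then 308, 332 and 314 CPM. Replicate 2 of siSOWAHA lay above siNC replicate 3, and CCNB1 did not pass the test (log2 fold change -0.09, adjusted p = 0.0801). CDK1, the kinase both cyclins bind, stood at 228, 228 and 223 and then 225, 222 and 226 CPM, with a 95% interval of -0.08 to 0.05 for its log2 fold change. CCNA2 (-0.01, adjusted p = 0.929) and CCNF (-0.01, adjusted p = 0.959), cyclins of S phase to mitosis, were equally near 0.

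The phosphatases that activate CDK1 moved apart. CDC25C, the less abundant, was at 17.6, 17.3 and 15.7 and then 13.2, 15.2 and 13.2 CPM (log2 fold change -0.28, SE 0.0911, adjusted p = 0.0445). CDC25B, which acts early in mitotic entry, was at 253, 267 and 260.0 and then 285, 274 and 275 CPM (log2 fold change 0.10, SE 0.0321, adjusted p = 0.0496). In both genes the groups did not overlap, but both calls lay close to the threshold. Without siNC replicates 1, 2 or 3 or siSOWAHA replicates 1 or 3 the adjusted p of CDC25C was 0.153, 0.135, 0.0536, 0.127 and 0.147. That of CDC25B was 0.202 and 0.129 without siNC replicates 1 and 3, and 0.141, 0.0621 and 0.109 without siSOWAHA replicates 1, 2 and 3; it was 0.0976 with upper-quartile factors and 0.106 with library totals alone.

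Of 6 other mitotic kinases and activators, 2 were lower and 4 did not pass the test (median -0.12). BORA, which activates Aurora A and helps it to switch on PLK1, was at 55.7, 56.3 and 53.4 and then 50.2, 48.5 and 49.9 CPM (log2 fold change -0.15, SE 0.0459, adjusted p = 0.0315). AURKA, the Aurora A kinase of centrosome and spindle, was at 132, 141 and 131 and then 118, 126 and 124 CPM (log2 fold change -0.13, SE 0.0418, adjusted p = 0.0451). In both genes every siSOWAHA library was below every siNC library. PBK, a kinase active in mitosis, showed the same separation with 45.8, 47.0 and 45.5 and then 40.8, 44.1 and 38.7 CPM, but its adjusted p was 0.0622 (log2 fold change -0.16). PLK1, the Polo kinase, was at 165, 170 and 167 and then 165, 165 and 162 CPM, with an interval of -0.10 to 0.04. NEK2, a centrosomal kinase, ranged from 55.01 to 68.8 CPM within the siSOWAHA group alone (log2 fold change -0.12, adjusted p = 0.288), and MELK had -0.05 (adjusted p = 0.522).
The BORA and AURKA calls were lost in most fits that left out a library. Such fits also called fewer of all genes, 1978 to 2678 against 2988 in the main fit. Adjusted p for BORA was 0.0921 and 0.123 without siNC replicates 1 and 2, and 0.103 and 0.0749 without siSOWAHA replicates 2 and 3. For AURKA it was 0.0764, 0.2 and 0.0653 without siNC replicates 1, 2 and 3, and 0.145, 0.0521 and 0.103 without siSOWAHA replicates 1, 2 and 3. PBK was called (adjusted p = 0.0295) without siSOWAHA replicate 2.

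Of the 5 spindle checkpoint genes, 1 was lower and 4 did not pass the test (median -0.07). BUB1, the kinase that marks centromeric chromatin and recruits checkpoint proteins, was at 137, 141 and 125 and then 115, 125 and 121 CPM (log2 fold change -0.16, SE 0.0478, adjusted p = 0.0353). It was the only gene of the 25 called lower whose groups overlapped, because siNC replicate 3 lay just under siSOWAHA replicate 2. TTK, the kinase at the head of the checkpoint, was at 65.0, 64.3 and 71.2 and then 60.1, 57.6 and 62.8 CPM; its groups did not overlap, but it did not pass the test (log2 fold change -0.15, adjusted p = 0.0512). It was called lower under 6 of the 14 alternative fits described at the end. BUB3, a binding partner of BUB1, was at 231, 228 and 227 and then 209, 227 and 218 CPM (-0.07, adjusted p = 0.198). BUB1B, part of the inhibitor that the checkpoint makes, was low only in siSOWAHA replicate 1, at 101 CPM against 117 to 120 CPM in the other libraries. MAD2L1, another part of it, had a log2 fold change of 0.03 (interval -0.06 to 0.13). The BUB1 call was lost, with adjusted p of 0.137 and 0.164 without siNC replicates 1 and 2 and of 0.128 and 0.103 without siSOWAHA replicates 1 and 3.

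Genes of anaphase control had the lowest median of the role groups, -0.24, and 5 of 7 were lower. PTTG1, the securin that holds separase inactive, was at 99.1, 96.6 and 93.6 and then 70.8, 83.9 and 74.3 CPM, which left 79.2% of the siNC level (log2 fold change -0.34, SE 0.056, adjusted p = 0.000649). ESPL1, separase itself, was at 137, 130 and 135 and then 116, 110 and 114 CPM (-0.24, SE 0.0388, adjusted p = 0.000535). Inhibitor and protease were thus both lower, and neither overlapped between the groups. CDCA3, a target of APC/C linked to mitotic entry, was at 59.4, 62.1 and 63.5 and then 46.1, 51.4 and 51.7 CPM (-0.31, SE 0.0522, adjusted p = 0.000708). CDC20, the APC/C activator, fell by 0.17 (SE 0.0368, adjusted p = 0.0044), from 153, 148 and 149 to 130, 132 and 138 CPM. Shugoshin 2 (SGO2), a guardian of centromeric cohesion, fell by 0.28 (adjusted p = 0.00641), whereas its relative SGO1 had -0.04 (interval -0.21 to 0.13). The APC/C ubiquitin-conjugating enzyme UBE2C did not pass the test (-0.12, adjusted p = 0.0839). All 5 calls held in every leave-one-out fit.

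At the centromere and kinetochore, 4 of 9 genes were lower and 5 did not pass the test (median -0.15). NUF2, a subunit of the NDC80 complex that binds microtubules, was the most evenly separated, at 48.4, 48.2 and 47.5 and then 39.0, 38.2 and 38.6 CPM. The difference of its means (48.0 ± 0.477 and 38.6 ± 0.411 CPM) was far larger than the spread within either group (log2 fold change -0.32, SE 0.049, adjusted p = 0.000364). Its partners in the same complex did not pass the test: NDC80 had -0.15 (adjusted p = 0.132), SPC25 -0.08 (adjusted p = 0.616) and SPC24 0.02 (adjusted p = 0.926). HJURP, the chaperone that deposits CENPA, was at 72.6, 74.0 and 70.6 and then 61.7, 62.4 and 60.0 CPM, again without overlap (-0.24, SE 0.0426, adjusted p = 0.00116). CENPA, the centromeric histone, had -0.14 with an interval of -0.33 to 0.05.
KNL1, the scaffold on which checkpoint proteins gather, was at 67.6, 66.6 and 68.2 and then 63.2, 60.3 and 56.2 CPM (-0.17, SE 0.0478, adjusted p = 0.0224). CENPF, a large protein of the outer kinetochore, fell by 0.13 (adjusted p = 0.0313); it ranged over 225 to 249 CPM in siNC and over 210 to 220 CPM in siSOWAHA. CENPE, the kinesin motor, had -0.15 (adjusted p = 0.137), although its groups did not overlap. Adjusted p for KNL1 was 0.0724, 0.0591 and 0.0845 without siNC replicates 1, 2 and 3, and 0.0634 and 0.125 without siSOWAHA replicates 2 and 3. For CENPF it was 0.173 and 0.0683 without siNC replicates 1 and 3, and 0.0565, 0.113 and 0.0635 without siSOWAHA replicates 1, 2 and 3.

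In the chromosomal passenger complex, which corrects wrong attachments, 1 of 4 subunits was lower. CDCA8 (borealin) was at 81.8, 75.03 and 79.8 and then 69.6, 64.4 and 69.7 CPM, with no overlap (log2 fold change -0.22, SE 0.0487, adjusted p = 0.00635). AURKB, the kinase of the complex, was at 93.6, 93.3 and 92.6 and then 90.8, 94.5 and 96.4 CPM (0.01, SE 0.0408, adjusted p = 0.901). BIRC5 (survivin), which with CDCA8 targets the complex to centromeres, was at 114, 125 and 120 and then 110, 119 and 119 CPM (-0.04, SE 0.0443, adjusted p = 0.615). INCENP, the scaffold, had -0.01, with an interval of -0.09 to 0.08 that does not reach the estimate for CDCA8. In the last 3 the groups overlapped.

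Of 9 spindle assembly genes, 6 were lower and 3 did not pass the test (median -0.20). GTSE1, a microtubule tip protein, was at 74.3, 79.5 and 75.6 and then 61.8, 61.4 and 63.1 CPM (log2 fold change -0.30, SE 0.0437, adjusted p = 0.000213). DLGAP5, which stabilises the fibres that reach the kinetochores, was at 92.5, 91.5 and 88.5 and then 71.0, 74.1 and 77.1 CPM (-0.29, SE 0.0449, adjusted p = 0.000326). Neither gene overlapped between the groups. HMMR, a spindle pole protein that works with TPX2, was at 89.4, 92.7 and 82.8 and then 78.0, 75.2 and 74.2 CPM (-0.22, SE 0.0484, adjusted p = 0.00526). TPX2, the activator of Aurora A on the spindle, fell by 0.14 (adjusted p = 0.00591) from a high level, 334 to 349 CPM in siNC and 303 to 319 CPM in siSOWAHA. ASPM, a protein of the spindle poles, fell by 0.20 (adjusted p = 0.0102), and CKAP2L, a spindle protein of low level, by 0.27 (adjusted p = 0.0396). NUSAP1, CKAP2 and TACC3, which bind or stabilise microtubules, had -0.05, -0.05 and -0.04 and did not pass the test. Adjusted p for ASPM was 0.0629 without siNC replicate 1 and 0.055 without siSOWAHA replicate 2. For CKAP2L it was 0.146 and 0.11 without siNC replicates 1 and 3, and 0.109 and 0.132 without siSOWAHA replicates 1 and 2.

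Of 5 cytokinesis genes, 1 was lower and 4 did not pass the test (median -0.10). ANLN (anillin), the scaffold of the contractile ring, was at 248, 251 and 243 and then 200.5, 215 and 218 CPM, with no overlap (log2 fold change -0.23, SE 0.036, adjusted p = 0.000449). ECT2, the exchange factor that activates RhoA at the ring, had the highest estimate of the 59 genes, 0.12 (SE 0.0393), but did not pass the test (adjusted p = 0.0553). Its values were 241, 253 and 248 and then 251, 272 and 281 CPM, and siSOWAHA replicate 1 lay inside the siNC range. Without that library ECT2 was called higher (adjusted p = 0.0059). RACGAP1, which brings ECT2 to the spindle midzone, was at 185, 174 and 173 and then 155, 168 and 173 CPM (-0.10, SE 0.043, adjusted p = 0.128). PRC1, which bundles midzone microtubules, had -0.03 (interval -0.11 to 0.06), and ARHGAP11A -0.14 (interval -0.30 to 0.02).

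Among genes of chromosome structure and the nuclear envelope, 3 of 5 were lower (median -0.15), and in all 5 every siSOWAHA library lay below every siNC library. PIMREG, a mitotic regulator, had the lowest estimate of the 59, with 58.1, 58.9 and 57.3 and then 41.8, 47.3 and 45.8 CPM, leaving 77.4% of the siNC level (log2 fold change -0.37, SE 0.052, adjusted p = 0.000162). MKI67, the Ki-67 protein that coats mitotic chromosomes and is the standard proliferation marker, was at 428, 414 and 412 and then 379, 370 and 385 CPM (-0.15, SE 0.0289, adjusted p = 0.00265). TOP2A, which untangles sister DNA, was the most abundant of the 59 by CPM, at 672, 642 and 661 and then 569, 612 and 625 CPM (-0.13, SE 0.0332, adjusted p = 0.0145). CDCA2, a phosphatase subunit of anaphase chromatin, had -0.19 (adjusted p = 0.062), and LMNB1, a protein of the nuclear lamina, had -0.09 (adjusted p = 0.0698). Adjusted p for TOP2A was 0.0865 and 0.0592 without siNC replicates 1 and 3, and CDCA2 was called (adjusted p = 0.0494) without siNC replicate 2.

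Neither transcription factor passed the test. FOXM1 was at 177, 176 and 188 and then 174, 167 and 173 CPM, the siSOWAHA libraries lying just below (log2 fold change -0.08, SE 0.0371, adjusted p = 0.196). MYBL2 was at 174, 184 and 182 and then 205, 185 and 184 CPM, the siSOWAHA libraries lying just above (0.09, SE 0.0425, adjusted p = 0.176), and siSOWAHA replicate 1 stood apart from the other two.

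**Figure D4:**
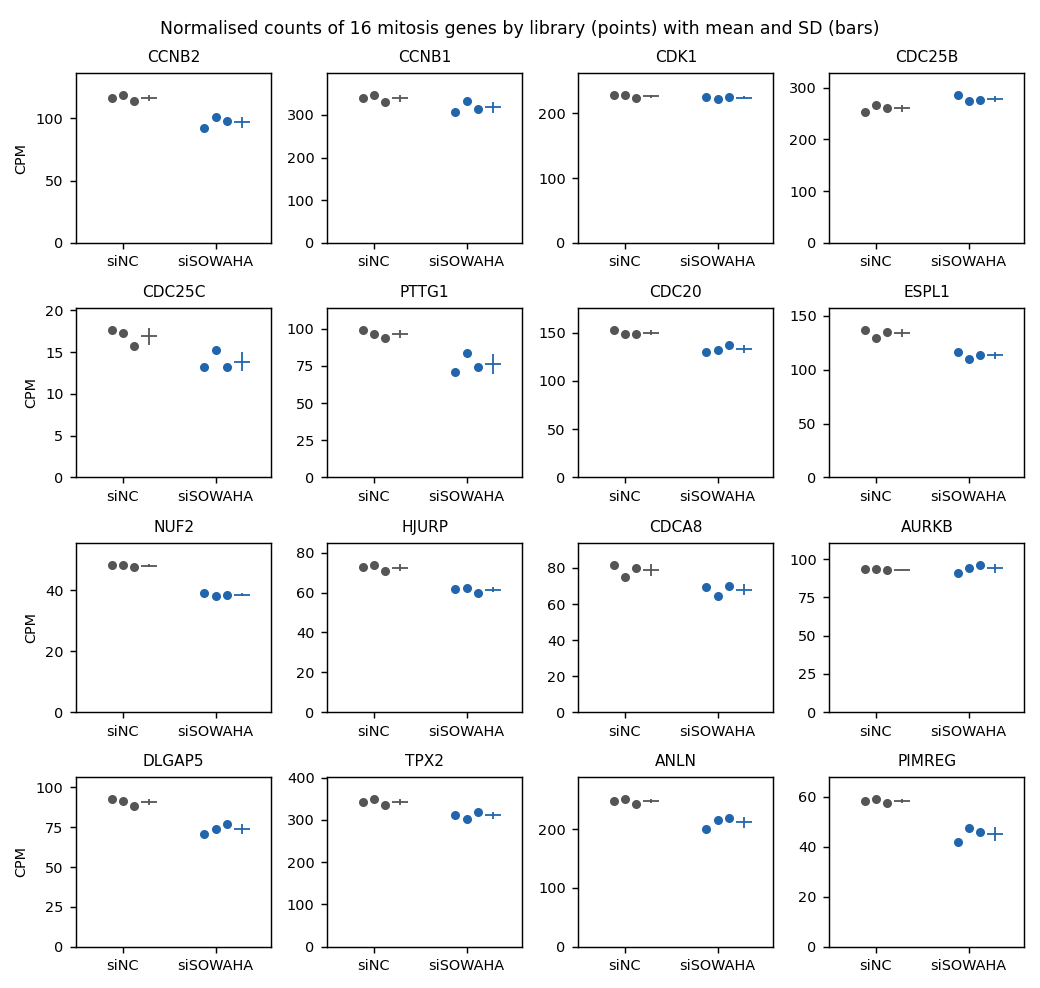
CPM of 16 of the mitosis genes in each library (points; siNC grey, siSOWAHA blue), with the group mean and SD (bars, n = 3) beside them; every vertical axis is linear and starts at 0. NUF2, PIMREG and DLGAP5 sit lower in siSOWAHA with no overlap, CDK1 and AURKB overlap, and CDC25B sits higher.

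Several genes called lower have a close partner that was not, and the ratio of partners within a library does not depend on library scaling. For 8 pairs picked after the values were seen, the ratio of the authors' FPKM (fragment counts scaled to transcript length and library size) values was compared by exact two-sided permutation tests, whose smallest p for 3 against 3 libraries is 0.1 (adjusted over the 8 pairs, 0.114). Because the pairs were picked for their fold changes, the ratios are given as a description. The ratio of CCNB2 to CCNB1 was 0.468, 0.467 and 0.469 in siNC and 0.407, 0.413 and 0.426 in siSOWAHA, or 88.7% of siNC. That of CDC25C to CDC25B was 0.1003, 0.0936 and 0.0870 and then 0.0665, 0.0799 and 0.0692, or 76.6%. ANLN to ECT2 stood at 1.17, 1.13 and 1.12 and then 0.913, 0.905 and 0.887, or 78.9%. These 3 pairs, SGO2 to SGO1 (84.5%), CDCA8 to INCENP (86.6%) and NUF2 to NDC80 (89.0%) had no overlap between groups and an exact p = 0.1. PLK1 to AURKA was higher in all siSOWAHA libraries (107%, exact p = 0.1). PTTG1 to CDC20, a pair in which both genes were called lower, overlapped (89.0%, exact p = 0.2).

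Per length of transcript the levels were ordered differently. On the FPKM scale CCNB1 was the highest of the 59 (mean 155 in siNC and 144 in siSOWAHA), ahead of TOP2A (105 and 95.2), while CENPE (3.33 and 2.97) and SGO1 (3.39 and 3.26) were the lowest. In a limma test of log2(FPKM + 1), 26 of the 59 genes were lower and none higher, with a background of 10.8% of 12027 genes called lower. The lists shared 23 genes: CENPF and KNL1 were lower in the count test alone, and CCNB1, LMNB1 and PBK in the FPKM test alone. Without siNC replicate 1 the FPKM test called 14 of the 59 lower. Since the tables hold the same reads, the FPKM test is a second scale and not a second measurement.

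Related gene lists are given by the same counts, to be read against the 7.77% lower and 9.12% higher calls over all genes. Among genes at least as abundant as the lowest of the 59 these shares were 11.5% and 15.5%. That set has a lower limit only and was not matched to the abundance of any list. Differences between lists were not tested. Of 12 mitotic kinesins, 10 were lower and none higher (median log2 fold change -0.18), among them KIF20A (-0.33), KIF23 (-0.32) and KIF15 (-0.35); without siNC replicate 1, 5 of the 12 were called. The list named centrosome duplication is broader than its name: it holds centrosome genes of several roles, and CEP55, which acts in cytokinesis. Of its 13 genes 5 were lower, with CEP55 at -0.27, CDK5RAP2 at -0.19 and CEP192 at -0.30. PLK4, STIL, SASS6 and CEP152 were among those not called. Condensin and cohesin had 3 lower of 17 (SMC2 -0.19, NCAPD2 -0.10, NCAPH -0.15), with none lower without siNC replicate 1 and 1 without siNC replicate 3 or siSOWAHA replicate 3. Of the core APC/C subunits and partners 1 was lower (ANAPC11, -0.16) and 1 higher (ANAPC13, 0.21) of 17; neither direction had a call without siNC replicate 1, siNC replicate 3 or siSOWAHA replicate 3.
Of 27 genes of the constitutive centromere and outer kinetochore, 3 were lower, among them CENPI (-0.21), and 2 were higher, ZW10 (0.56) and SKA2 (0.34). Without siNC replicate 1 or 3 the lower calls of that list numbered 1, and without siSOWAHA replicate 3 there were none. Mitotic entry control had 1 lower (CCNB1IP1, -0.28) and 2 higher of 11, CDC25A (0.34) and ENSA (0.12); without any 1 of the siNC replicates, or siSOWAHA replicate 1 or 2, the higher calls numbered 1. In the MuvB, DREAM and pocket protein list, 1 of 16 was lower (E2F5, named after its value was seen) and 3 were higher, TFDP2 (0.29), LIN54 (0.22) and TFDP1 (0.12). Without siNC replicate 1 or 3 the higher calls of that list numbered 1, and leaving out any 1 of the 6 libraries left no lower call.
Of 30 genes of DNA replication and G1/S, 6 (20%) were higher and none lower (median 0.05). The higher share was near the 15.5% among genes at least as abundant as the lowest of the 59. Those with the smallest adjusted p were CDC6 (0.27), FEN1 (0.17) and MCM3 (0.14). By number, 4 of these were higher with upper-quartile factors, with library totals alone or without siNC replicate 1, and 8 with DESeq2. Over the 101 genes of the mitosis lists other than kinesins and G1/S, 14 were lower and 8 higher, with a median of -0.02. For the promoters, CHR matches were held by 10 of the 12 kinesins and by 2 of the 25 G1/S genes with an entry. The other lists lay between: 9 of 15 for condensin and cohesin, and 6 of 13 for centrosome duplication. MuvB, DREAM and pocket proteins had 6 of 13, and mitotic entry control 4 of 9. Constitutive centromere and outer kinetochore had 9 of 21, and APC/C core and partners 5 of 17. How these shares relate to the calls was not tested.

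**Figure D5:**
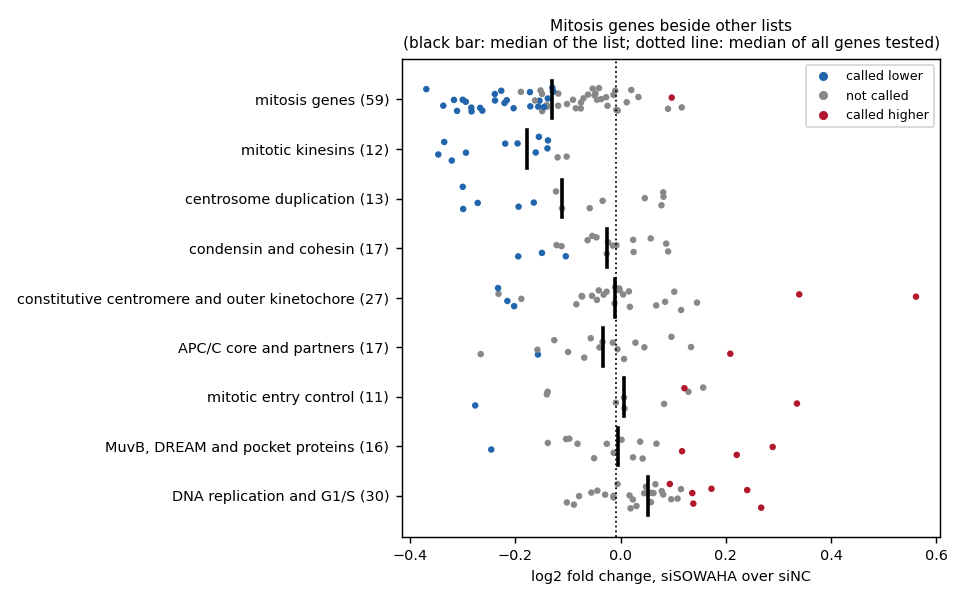
Log2 fold change of every gene in the 59 mitosis genes and in 8 related lists, siSOWAHA over siNC; each point is 1 gene, blue called lower, red called higher and grey not called, with the list median as a black bar and the median of all genes tested as a dotted line. The medians of the mitosis genes (-0.13), the kinesins (-0.18) and the list named centrosome duplication (-0.11) lie farthest left of the dotted line. That of DNA replication and G1/S (0.05) lies farthest to its right. The medians of the other lists lie near the line, from -0.03 (APC/C core and partners) to 0.01 (mitotic entry control).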

How the data were processed

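Poly(A) RNA of 6 libraries was sequenced strand-specifically with paired reads of 150 nt, per the labels' protocols. The submitters' processing notes name cutadapt 1.9 and FastQC, and the build GRCh38. No aligner, counter or strand setting is given in the sources used here. Raw counts per gene were deposited by the authors, and a second deposited table holds FPKM values of 24901 genes beside identical counts. Groups come from the sample titles, since the treatment label reads as knockdown for all 6 samples.

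The count test was edgeR 4.0.16 under R 4.3.3: genes kept by filterByExpr, scaling by TMM, and two-sided quasi-likelihood tests with the robust option, Benjamini-Hochberg adjusted at 0.05. The SE is the size of the log2 fold change over the square root of F, and CPM values use TMM factors. FPKM values of at least 1 in 3 samples were tested with limma 3.58.1 on log2(FPKM + 1). The steps were tested on simulated data. With changed genes drawn from all levels, the edgeR test recovered 38% of changes of 1.25-fold and 56% of changes of 1.5-fold. A gene that did not pass the test may therefore still differ. The share recovered was not computed for the 59 genes alone. Replicates differed by more than sampling noise (chi-square per degree of freedom 7.81 to 14.9), so all were kept.

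The members, lists, role groups and tests were chosen with earlier results of these data known. The 3 members of each role group with the smallest adjusted p are given by library, other members more briefly, and up to 3 called genes of each related list by name. Promoters come from RefSeq (GRCh38.p14). Alternatives were other scaling factors and filters, DESeq2 1.42.0, limma-voom, the replicate block, the stricter threshold 0.01, testing against a 1.2-fold change, FPKM with a pseudocount of 0.1 or no filter, and each library left out.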

Additional observations from a re-analysis of the deposited data

How the results depend on the processing

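The main count of 25 mitosis genes called lower became 25 with RLE factors, 30 with upper-quartile factors, 31 with library totals alone, 26 with no filter, 29 with a CPM filter, 30 with DESeq2 and 21 with limma-voom. It became 16 at a threshold of 0.01 and 0 in the test against a fold of 1.2, where the calls over all genes went from 2988 to 1556 and 298. At a fold of 1.2 only the null hypothesis differs from the main test. Leaving out 1 library gave 16 to 21 genes lower, a median log2 fold change of -0.14 to -0.10 over the 59 genes, and 1978 to 2678 calls over all genes. Of the 25 genes, 16 kept their call under all 14 alternatives other than those of threshold and fold, and no called gene changed sign. Of the mitosis genes not called in the main fit, 7 were called under at least 1 of these alternatives. Scaling moved the median of all genes from -0.01 to -0.02. For FPKM, with 2408 genes called and 26 mitosis genes lower, no filter gave 1423 and 17, and leaving out 1 library gave 1408 to 2020 and 14 to 20. The cause of these moves was not tested, beyond the fewer libraries in the fits that leave one out.

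Same-numbered libraries did not deviate together (correlations of -0.07, 0.01 and -0.02), and pairs with different numbers had correlations of -0.04 to 0.06. The labels do not say whether same-numbered libraries share a culture or batch. With the replicate block 23 mitosis genes were lower and 1 higher, of 2599 called genes; CDC25B (adjusted p = 0.0811), CDC25C (0.055), BORA (0.0505) and CKAP2L (0.0518) were no longer called, while TTK (0.0345, lower) and ECT2 (0.0431, higher) were, and the FPKM test gave 24 lower of 1880 called. Depth limits the rarer genes: SEs of the log2 fold changes ran from 0.0289 to 0.0931.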
